A study of Homo sapiens with 6 samples.

Results

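The endothelin and prokineticin systems were followed through 10 named genes, all found by their symbol among the 57341 gene names of the count table. They are the endothelin ligands EDN1, EDN2 and EDN3, the endothelin-converting enzymes ECE1 and ECE2, the endothelin receptors EDNRA and EDNRB, the prokineticin ligand PROK1 and the prokineticin receptors PROKR1 and PROKR2. RNA was sequenced from 3 replicates of H295R, an established human adrenocortical carcinoma line, and from 3 replicates of H295R-PM-Ptc+, a population sorted from that line for cells with the Hedgehog receptor Ptch1 on their plasma membrane, which was amplified afterwards. Both populations were grown in the same serum-supplemented medium without treatment, and the labels name no edited gene in either. Both groups come from 1 cell line, and neither the labels nor the methods say that the replicates came from separate cultures or sorts, so the p-values measure the spread between these libraries, which may be technical.

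Endothelins are short peptides cut in the cell from inactive precursors, first by furin-like proteases and then by an endothelin-converting enzyme. They act through the G protein-coupled receptors ETA (EDNRA) and ETB (EDNRB), mostly by Gq, phospholipase C and calcium, and in the adrenal cortex they are known to stimulate steroid secretion. Prokineticin 1, also called endocrine gland-derived vascular endothelial growth factor, is a secreted protein of steroid-producing glands that acts on endothelial cells through PROKR1 and PROKR2, which are also coupled to Gq.

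The labels of the libraries were checked first. PTCH1, the gene of the receptor used for the sort, had 441, 559 and 579 counts in the H295R-labelled libraries and 248, 326 and 319 in those labelled H295R-PM-Ptc+, a log2 fold change of -0.81 (standard error 0.147, edgeR adjusted p = 0.0207). Over the alternatives this p ran from 1.72e-06 to 0.0921, and it was 0.0799 without replicate 2 of the H295R label, 0.0921 without replicate 3 of that label and 0.0618 without replicate 2 of the H295R-PM-Ptc+ label. The library names also differ between the deposited counts and the study's own table of normalized values, where each of the 6 columns follows, up to a scale factor, the deposited counts of the opposite group at an unchanged replicate code. The PTCH1 counts, which did not overlap between the groups, and the names in the study's own table thus both go against the deposited names. Apart from the PTCH1 counts, nothing in the deposited table was used to tell which set of names is right. Groups are called "labelled H295R" and "labelled H295R-PM-Ptc+" as in the deposited table, and every fold change is the latter over the former. Each direction below would turn if the names were exchanged, and is the reverse of that under the names in the study's own table.

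Each library held between 23264403 and 25813247 counted fragments, and 16710 genes passed edgeR's filter on low counts and were tested. Within a group the replicates were not alike to within counting error, with a chi-square per gene of 5.97 to 28.3 where counting error alone gives about 1. Replicate 1 of both groups stood apart from replicates 2 and 3 on the second principal component, which held 26.2% of the variance. All 8 adrenocortical markers (NR5A1, STAR, CYP11A1, CYP17A1, CYP21A2, HSD3B2, MC2R and INHA) passed the filter, with a summed level of 921 to 1191 TPM (transcript level per length, scaled to a fixed sum) in the H295R-labelled libraries and 1002 to 1298 TPM in those labelled H295R-PM-Ptc+. By sign 3 of the 8 were higher and 5 lower in the latter, and 1 was called, beside 3.73% of all genes tested. It was CYP21A2, a steroid hydroxylase gene with a near-identical pseudogene, with a log2 difference of 0.88 (edgeR adjusted p = 0.00670). With the replicate block STAR (log2 fold change 0.41, adjusted p 0.346 without the block) was also called higher and CYP11A1 (-0.25, adjusted p 0.391 without the block) lower. That fit called 22.5% of all genes. Of 8 endothelial markers none passed, 5 had at most 3 counts in every library, ERG and CLDN5 had none, and the summed level was 0.383 to 0.486 TPM and 0.580 to 0.809 TPM. Summed chromaffin and neural markers (0.563 to 0.590 and 0.777 to 1.14 TPM), fibroblast markers (2.86 to 3.40 and 3.50 to 4.30 TPM) and melanocyte markers (11.1 to 12.3 and 14.3 to 15.7 TPM) did not overlap between the groups either. In CPM (counts scaled to TMM-adjusted library size) 23.5% of all genes tested did not overlap. COL1A1, the only tested fibroblast marker, did overlap in CPM (7.40 to 8.90 and 8.76 to 10.5, edgeR adjusted p = 0.455). The part of endothelial, chromaffin, neural, fibroblast or melanocyte cells in the differences below was not tested. In bulk RNA, fewer cells that express a gene and less RNA of it per cell cannot be told apart.

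Of the 10 members, 5 passed the filter: ECE1, ECE2, EDNRA, EDNRB and PROK1. Of these, 3 were called at an adjusted p under 0.05, beside 3.73% of all genes tested. PROK1 and ECE1 were the 2 called higher in the H295R-PM-Ptc+-labelled libraries, beside 2.42% of all genes, and EDNRA was the 1 called lower, beside 1.32%. EDNRB and ECE2 were tested but not called. The study named PROK1, EDNRA and ECE1 in a grouped pair of network modules that it selected on these same libraries, so their calls are not independent evidence. The median log2 fold change of the 5 tested members was 0.24, beside 9.4e-04 over all genes tested. The same 3 genes were called with the replicate number as a block, a fit that called 22.5% of all genes.

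**Figure D1:**
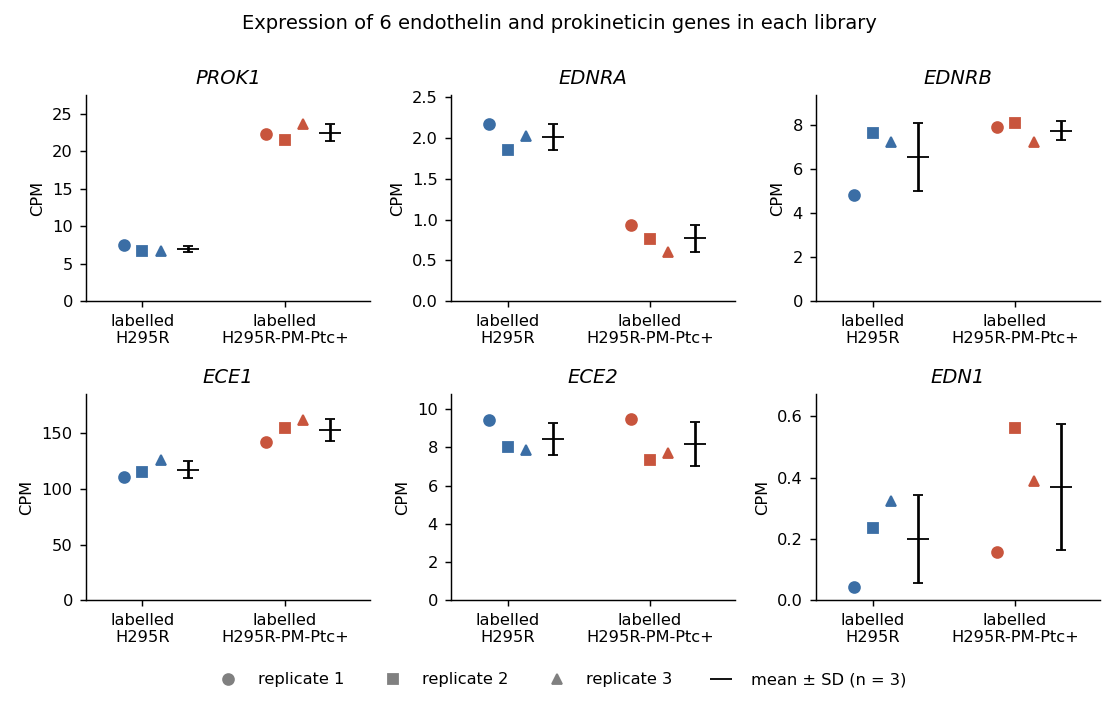
CPM (counts scaled to TMM-adjusted library size) of 6 members in each of the 6 libraries, with the replicate shown by the marker shape and the mean ± SD of 3 libraries beside the points; axes start at 0. PROK1 and ECE1 lay higher and EDNRA lower in all 3 H295R-PM-Ptc+-labelled libraries, while EDNRB, ECE2 and EDN1 overlapped between the groups.

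PROK1 was the tested member with the largest change. It lies on the plus strand of chromosome 1 from 110451200 to 110457354 (GRCh38) and was counted over 3 exons. The 250 bases before its RefSeq start, at chr1:110450899-110451148 on the plus strand of GRCh38.p14, are shown because this is the start of the tested member that changed most, with the matches to an E-box (CANNTG, either strand) in capitals.
PROK1 upstream: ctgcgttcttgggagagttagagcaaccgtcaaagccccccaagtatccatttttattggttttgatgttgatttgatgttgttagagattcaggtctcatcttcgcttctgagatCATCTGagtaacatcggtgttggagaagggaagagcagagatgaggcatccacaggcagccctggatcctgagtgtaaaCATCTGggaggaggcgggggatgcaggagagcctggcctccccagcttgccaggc

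The E-box letters occurred 2 times in this window, both as CATCTG, and are present in 61.8% of the 35116 RefSeq windows of the same length. The letters of a TATA box (TATAAA, in 10.7% of windows), a GC box (GGGCGG, 42.6%), an SF-1 site (AAGGTCA, 3.44%), a cAMP response element (TGACGTCA, 1.65%), an AP-1 site (TGANTCA, 6.57%) and a GLI site (GACCACCCA, 0.199%) were not in it on either strand. The window held 51.6% G and C, beside a median of 58.0% over all windows. The data hold no measurement of binding or methylation at this start, so these matches describe the sequence alone.

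PROK1 had 178, 171 and 165 counts in the H295R-labelled libraries and 572, 534 and 549 in those labelled H295R-PM-Ptc+. The groups lay far apart, with 534 counts in the lowest library of the higher group and 178 in the highest library of the lower group. In CPM the levels were 6.95 ± 0.432 and 22.5 ± 1.13 (SD, n = 3 each), which is 3.24-fold. The log2 fold change was 1.70 (standard error 0.0980, 95% confidence interval 1.47 to 1.92, edgeR adjusted p = 2.87e-04). By p-value PROK1 ranked 2 among the 16710 genes tested, and by the size of the rise 88 among the 404 genes called higher. The SD of its raw counts was 6.51 and 19.1 in the 2 groups, where counting error alone gives 13.1 and 23.5. An SD from 3 libraries is itself uncertain, so no close agreement of the replicates is read from it.

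PROK1 rose within all 3 replicate numbers, by log2 differences of 1.58, 1.67 and 1.83. Over the 13 alternatives the log2 fold change lay between 1.65 and 1.75 and the adjusted p at or under 0.00385. The 20 nearest tested genes on chromosome 1, 10 on each side between 109984686 and 111433068, had a median log2 fold change of 0.0020, with 10 higher and 10 lower and none called. PROK1 lay 1.69 above that median (log2).

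The receptors of prokineticins were at the limit of detection. PROKR1, on chromosome 2 from 68643589 to 68655576, had 1 count in a single library of each group and none in the other 4. PROKR2, on chromosome 20 from 5302040 to 5314369, had 0 counts among 147754441 fragments in the 6 libraries, which allows a level of up to 0.0203 CPM when 3 counts are taken as the limit, for counting error only. No difference in either receptor was detectable at this depth. PROK1, their ligand, had 165 to 572 counts per library, where each receptor had at most 1.

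Among the partners fixed as a list, PROK2, the other prokineticin ligand, had 0 to 3 counts per library. MRAP2, a membrane protein known to bind prokineticin receptors and melanocortin receptors, had 1, 0 and 0 counts in the H295R-labelled libraries and 2, 3 and 2 in the others, and was not tested. MRAP, the accessory protein of the ACTH receptor, was the only one of these 3 genes to be tested and was not called, with a log2 fold change of 0.24 (95% confidence interval -0.12 to 0.60, edgeR adjusted p = 0.499).

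The endothelin receptors were measured next. EDNRA, the ETA receptor, lies on chromosome 4 from 147480917 to 147544954. It had 52, 47 and 50 counts in the H295R-labelled libraries and 24, 19 and 14 in those labelled H295R-PM-Ptc+. All 3 of the former lay above all 3 of the latter. The levels were 2.02 ± 0.163 CPM and 0.769 ± 0.167 CPM (SD, n = 3 each), which is 2.62-fold lower in the H295R-PM-Ptc+-labelled libraries. The log2 fold change was -1.38 (standard error 0.220, 95% confidence interval -1.87 to -0.88, edgeR adjusted p = 0.0111), and by size it ranked 42 among the 220 genes called lower.

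EDNRA was a gene of low level in both groups, since 13.9% and 4.74% of the tested genes had a lower mean TPM. The pairs of same-numbered replicates gave log2 differences of -1.20, -1.25 and -1.71. Over all alternatives the adjusted p lay between 4.01e-04 and 0.0566. It missed 0.05 without replicate 3 of the H295R label (0.0530), without replicate 2 of the H295R-PM-Ptc+ label (0.0566) and without replicate 3 of the H295R-PM-Ptc+ label (0.0523), at log2 fold changes of -1.39, -1.37 and -1.25. Its 20 nearest tested genes on chromosome 4 had a median log2 fold change of -0.068, with 7 higher and 13 lower and none called.

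EDNRB, the ETB receptor, lies on the minus strand of chromosome 13 from 77895481 to 77919768. It had 115, 194 and 179 counts in the H295R-labelled libraries and 203, 201 and 168 in those labelled H295R-PM-Ptc+. Replicate 1 of the H295R label was the lowest, and the other 5 lay together, so that the groups overlapped. The levels were 6.56 ± 1.53 CPM and 7.76 ± 0.442 CPM (SD, n = 3 each). The log2 fold change was 0.24 (95% confidence interval -0.15 to 0.63, edgeR adjusted p = 0.544), and a change of up to 1.55-fold upwards lies within that interval. Without replicate 1 of the H295R label it was 0.060 (adjusted p = 0.830), and over the alternatives the adjusted p ran from 0.192 to 0.861. In the pairs of same-numbered replicates the log2 differences were 0.72, 0.082 and 0.0035.

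The ratio of the receptors within a library does not depend on the scaling of the libraries. Per length, EDNRB stood at 1.87, 3.49 and 3.03 times EDNRA in the H295R-labelled libraries and at 7.15, 8.94 and 10.1 times in those labelled H295R-PM-Ptc+. The groups did not overlap, with means of 2.79 ± 0.834 and 8.74 ± 1.51 (SD, n = 3 each). On the log2 scale the ratio was 1.68 higher in the H295R-PM-Ptc+-labelled libraries (exact permutation test, two-sided, p = 0.1, the smallest that 3 libraries against 3 allow). The ETB transcript was thus the more abundant of the 2 receptor transcripts in all 6 libraries.

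**Figure D2:**
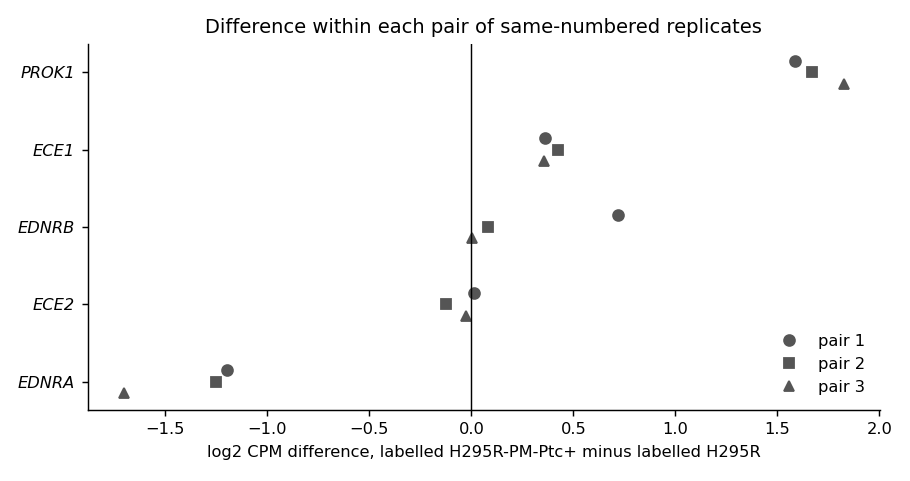
Log2 CPM difference between same-numbered replicates (labelled H295R-PM-Ptc+ minus labelled H295R) for the 5 tested members, with 1 marker for each of the 3 pairs and a line at 0. PROK1 and ECE1 lay above 0 and EDNRA below 0 in all 3 pairs, and for EDNRB pair 1, at 0.72, lay apart from pairs 2 and 3, at 0.082 and 0.0035.

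The converting enzymes make the active peptides from their precursors. ECE1, the main endothelin-converting enzyme, lies on the minus strand of chromosome 1 from 21217247 to 21345504 and was the member with the most counts. It had 2644, 2927 and 3110 counts in the H295R-labelled libraries and 3637, 3846 and 3733 in those labelled H295R-PM-Ptc+. The groups did not overlap, as was the case for 23.5% of all genes tested. The levels were 117 ± 7.77 CPM and 153 ± 9.64 CPM (SD, n = 3 each), which is 1.30-fold. The log2 fold change was 0.38 (standard error 0.0833, 95% confidence interval 0.19 to 0.57, edgeR adjusted p = 0.0417), which ranked 386 among the 404 genes called higher by size.

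The change of ECE1 was small and even, with log2 differences of 0.36, 0.42 and 0.36 in the pairs of same-numbered replicates. Its adjusted p was 1.26e-05 with the replicate block and ran up to 0.192 over the alternatives. It missed 0.05 in 5 of the 6 fits that left out one library, at 0.0567 without replicate 1 of the H295R label, 0.138 without replicate 2 of the H295R label, 0.0981 without replicate 3 of the H295R label, 0.158 without replicate 2 of the H295R-PM-Ptc+ label and 0.192 without replicate 3 of the H295R-PM-Ptc+ label. The log2 fold change stayed between 0.33 and 0.42. Of its 20 nearest tested genes, on chromosome 1 between 20482391 and 22143969, 18 were higher and 2 lower in the H295R-PM-Ptc+-labelled libraries, with a median log2 fold change of 0.15 and 1 called gene, KIF17. ECE1 lay 0.23 above that median, and the part of this stretch in its change was not tested.

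ECE2, a related enzyme known from neural and endocrine tissue, had 225, 204 and 195 counts in the H295R-labelled libraries and 243, 183 and 179 in those labelled H295R-PM-Ptc+. The groups overlapped, and replicate 1 was the highest in each. The levels were 8.45 ± 0.844 CPM and 8.20 ± 1.15 CPM (SD, n = 3 each), with a log2 fold change of -0.041 (95% confidence interval -0.35 to 0.27, edgeR adjusted p = 0.925). The value turned to 0.043 without replicate 1 of the H295R label and to 0.031 without replicate 2 of the H295R-PM-Ptc+ label (adjusted p = 0.900 and 0.968, over all alternatives 0.578 to 0.992). These counts are not of ECE2 alone. The counted exons run from 184249650 to 184293031 on chromosome 3, and 1823 of their 6552 bases (27.8%) lie before the start of ECE2 in a later annotation of the same assembly (GENCODE), where the methyltransferase gene EEF1AKMT4 shares 975 of them. CAMK2N2, on the opposite strand, shares 373 of the 6552 bases. The counting was set to one strand, and whether that setting fits the library kit was not tested. Fragments of ECE2 and EEF1AKMT4 cannot be told apart in this table.

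With that limit, ECE1 stood per length at 10.6, 12.9 and 14.4 times the ECE2 row in the H295R-labelled libraries and at 13.5, 19.0 and 18.8 times in the others. The groups overlapped, since replicate 1 of the H295R-PM-Ptc+ label lay below replicate 3 of the H295R label. The log2 ratio was 0.43 higher in the H295R-PM-Ptc+-labelled libraries, with differences of 0.35, 0.55 and 0.39 in the pairs of same-numbered replicates. The exact permutation test without pairing gave p = 0.2 (two-sided), and with 3 libraries against 3 it cannot go below 0.1.

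The endothelin ligands were scarce. EDN1, the precursor of endothelin-1 on chromosome 6 from 12290363 to 12297194, had 1, 6 and 8 counts in the H295R-labelled libraries and 4, 14 and 9 in those labelled H295R-PM-Ptc+. The groups overlapped, and replicate 1 was the lowest in each. The levels were 0.201 ± 0.144 CPM and 0.369 ± 0.204 CPM (SD, n = 3 each), with p = 0.4 in an exact permutation test on log2 CPM (two-sided), which cannot go below 0.1 with 3 libraries against 3. In the pairs of same-numbered replicates the log2 CPM difference was 1.49, 1.19 and 0.26, at 1 to 14 counts per library. EDN1 did not pass the filter, and without a filter its log2 fold change was 0.84 (95% confidence interval -0.30 to 1.98, edgeR adjusted p = 0.640). EDN2, on chromosome 1 from 41478775 to 41484673, had 1 count in the H295R-labelled libraries and 2 in the others. EDN3, on chromosome 20 from 59300427 to 59325992, had a single count, in replicate 3 of the H295R-PM-Ptc+ label. With at most 2 counts of EDN2 and 1 of EDN3 in any library, no difference was detectable.

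Set side by side per length, the members kept nearly the same order in both groups. In the H295R-labelled libraries the mean TPM was 59.5 ± 4.95 for ECE1, 19.1 ± 0.935 for PROK1, 4.83 ± 1.17 for EDNRB, 4.75 ± 0.408 for ECE2, 1.75 ± 0.134 for EDNRA and 0.366 ± 0.266 for EDN1 (SD, n = 3). EDNRB and ECE2 overlapped there, and the other neighbours in this order did not. In the H295R-PM-Ptc+-labelled libraries the mean TPM was 80.7 ± 6.36 for ECE1, 64.7 ± 4.99 for PROK1, 5.94 ± 0.195 for EDNRB, 4.81 ± 0.691 for ECE2, 0.695 ± 0.144 for EDNRA and 0.695 ± 0.374 for EDN1. EDNRA and EDN1 overlapped there, while PROK1 came close to ECE1 without reaching it, at 60.0 to 69.9 TPM against 75.0 to 87.6 TPM. Of all genes tested, 54.7% had a lower mean TPM than PROK1 in the H295R-labelled libraries and 81.2% in the others, and for ECE1 these shares were 80.4% and 85.0%.

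**Figure D3:**
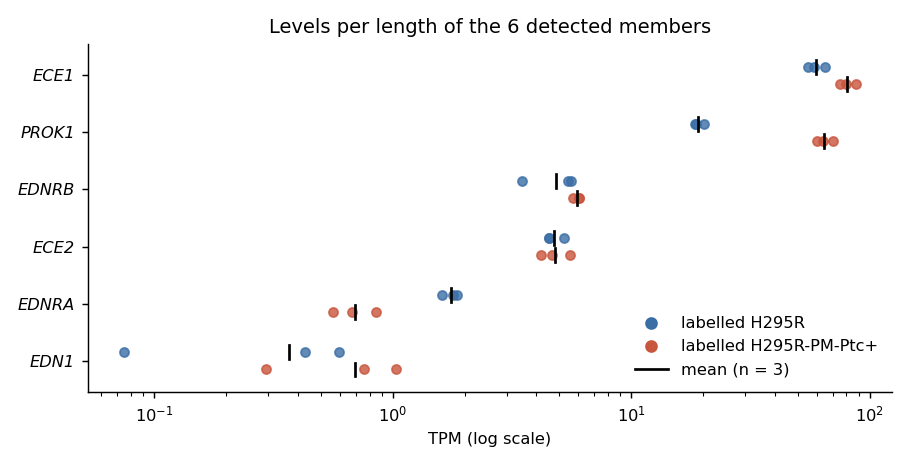
Level per length (TPM, log axis) of the 6 members with counts in all libraries, 1 point per library and a bar at the mean of 3 libraries. ECE1 and PROK1 stand above the receptors, and EDNRA falls to the level of EDN1, 0.695 TPM, in the H295R-PM-Ptc+-labelled libraries.

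Few of the genes around these systems were called. Of 35 further genes in 4 lists, 26 were tested and 1 was called, PCSK6. By sign alone 17 had a fold change above 0, PCSK6 among them, and 9 below 0. The median log2 fold change of the 26 was 0.065, beside 9.4e-04 over all genes tested, and 1 called gene of 26 stands against the 3.73% called among all genes. With the replicate block, 6 of the 26 were called higher and 2 lower, where 22.5% of all genes were called.

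Among the genes that cut, activate or break down such peptides, 8 of 11 were tested. PCSK6, a furin-like proprotein convertase, had 449, 486 and 478 counts in the H295R-labelled libraries and 661, 746 and 705 in those labelled H295R-PM-Ptc+. The groups did not overlap, and the log2 fold change was 0.59 (standard error 0.0891, edgeR adjusted p = 0.00845). No gene of the 4 lists was called without replicate 3 of the H295R label, replicate 2 of the H295R-PM-Ptc+ label or replicate 3 of the H295R-PM-Ptc+ label. MME, the membrane peptidase neprilysin, which degrades endothelins, was at 293 ± 18.7 TPM and 384 ± 17.9 TPM (SD, n = 3 each) without overlap of the groups, and its log2 fold change of 0.33 had an adjusted p of 0.0733 with edgeR and of 3.65e-04 with the replicate block. CTSA, a lysosomal carboxypeptidase that also inactivates endothelin-1, had a log2 fold change of 0.29 (edgeR adjusted p = 0.127, with the replicate block 1.82e-04). FURIN itself was at 58.4 ± 7.62 TPM and 58.1 ± 4.16 TPM, with a log2 fold change of -0.067 (95% confidence interval -0.30 to 0.17). CMA1, the mast cell chymase that can also process endothelin precursors, had no counts.

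On the side of the signal, 11 of 15 genes of the Gq and calcium list and all 6 genes of the Gi, Gs and G12 list were tested, and none was called. At an unadjusted p under 0.05 there was 1 of the 11, GNAQ, and 0 of the 6, beside 17.3% of all genes tested. GNAQ, the Gq alpha subunit, was at 91.0 ± 17.8 TPM and 73.2 ± 11.5 TPM, with a log2 fold change of -0.37 (edgeR adjusted p = 0.258, with the replicate block 2.22e-05). GNA11, its close relative, had a log2 fold change of 0.14 (95% confidence interval -0.06 to 0.35), and ITPR2, a calcium channel opened by the phospholipase C product, one of 0.27 (-0.13 to 0.68). With the replicate block their adjusted p was 0.0273 and 0.00161. PLCB1, a phospholipase C gene chosen after its values were seen, had a log2 fold change of 0.26 (edgeR adjusted p = 0.295, with the replicate block 0.0127). GNAS, which encodes the Gs alpha subunit, was the most abundant of these genes at 297 ± 12.3 TPM and 284 ± 9.06 TPM, with a log2 fold change of -0.12 (edgeR adjusted p = 0.442, with the replicate block 0.0485).

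**Figure D4:**
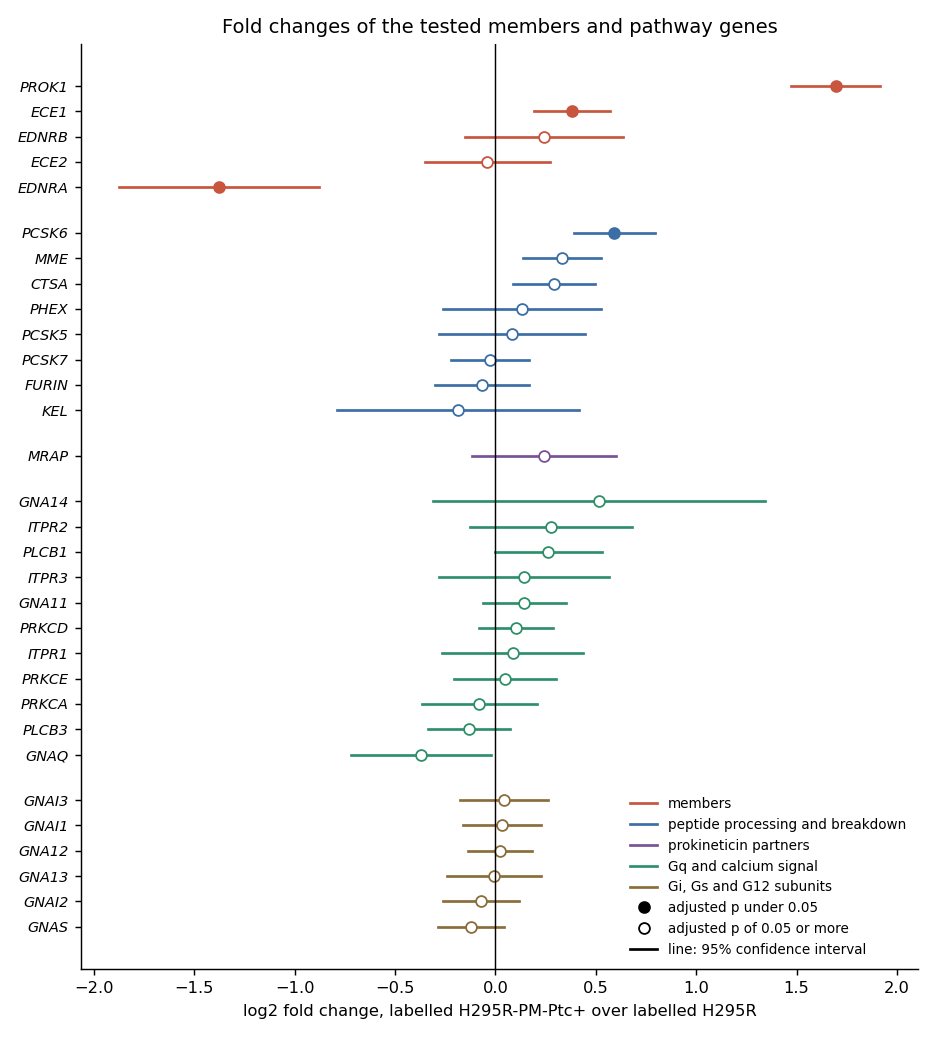
Log2 fold change (labelled H295R-PM-Ptc+ over labelled H295R, edgeR) with its 95% confidence interval for the 5 tested members and 26 tested genes of the 4 pathway lists, filled where the adjusted p over all genes was under 0.05. PROK1, at 1.70, and EDNRA, at -1.38, lie outside the range of the 26 pathway genes, of which PCSK6 alone is filled.

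The genes whose pattern over the 6 libraries was most like that of each called member were listed by the Pearson correlation of log2 CPM, among 14553 tested genes with a mean of at least 1 CPM. For PROK1 they were the collagen gene COL3A1 (r = 0.998, log2 fold change 1.51), VCX3A (0.998, log2 fold change 1.82), a member of a family of near-identical genes, and MANSC1 (0.998, log2 fold change 0.29). For EDNRA they were AKAP7 (0.997, log2 fold change -0.21), NOP16 (0.996, log2 fold change -0.13) and XAGE1A (0.995, log2 fold change -1.54), the last again of a family with near-identical copies. For ECE1 they were GPR157 (0.997), BRINP2 (0.996) and FAM64A (0.994), with log2 fold changes of 0.31, 0.25 and 0.17. AKAP7, NOP16, GPR157, BRINP2 and FAM64A were not called (edgeR adjusted p 0.142, 0.374, 0.1, 0.12 and 0.255), while COL3A1, VCX3A, MANSC1 and XAGE1A were. With 6 libraries that share their groups and replicate codes, such values are common, as 264, 177 and 183 genes had an r over 0.95 with PROK1, EDNRA and ECE1.

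**Figure D5:**
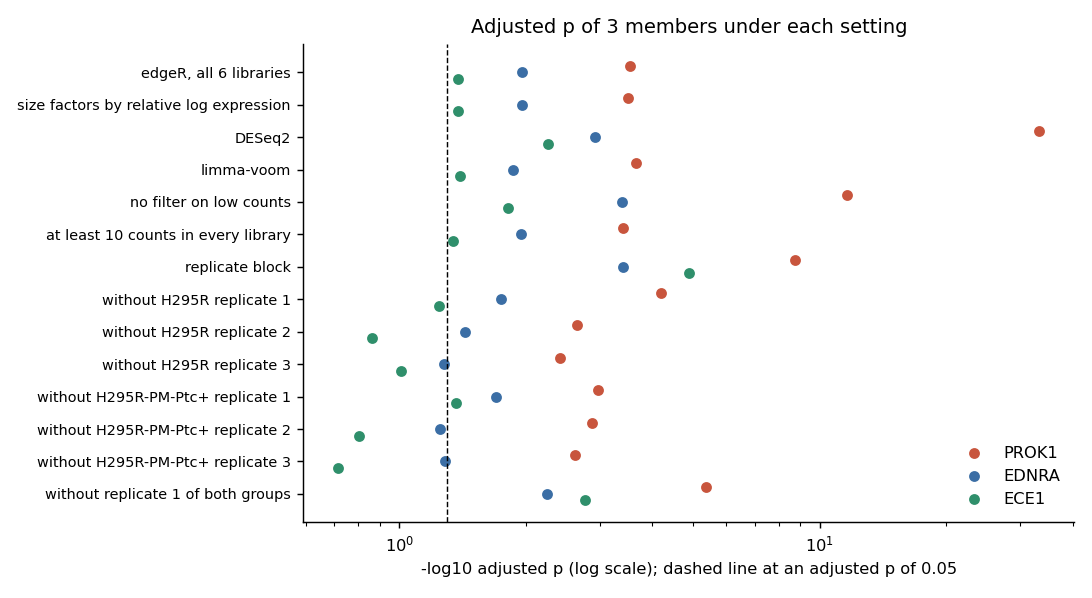
Adjusted p of PROK1, EDNRA and ECE1 as -log10 (log axis) with edgeR on all 6 libraries and under each of 13 alternatives, with a dashed line at 0.05. PROK1 stays right of the line in all of them, EDNRA crosses it in 3 fits and ECE1 in 5, all of them fits that left out one library.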

How the data were processed

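The authors mapped the reads to hg38 with STAR 2.4.0a, then assigned fragments to Ensembl gene names (featureCounts) and deposited raw counts of 6 libraries without normalization. They kept the primary position of multiply mapped reads. The table also holds 1 row without a gene name (spike-in sequences, 0 counts), which was left out. A gene length column, deposited by the authors as another value in bases, was used for TPM.

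The main test was the quasi-likelihood F test of edgeR 4.0.16 (R 4.3.3), two-sided, after filterByExpr and TMM scaling, with a term for the group alone and Benjamini-Hochberg adjustment over 16710 genes. CPM used the TMM-scaled library sizes, and 0.5 counts were added for log2 CPM. Pearson correlations and differences within pairs used log2 CPM. A count of 3 was taken as the detection limit, for counting error only. Alternatives were relative log expression, DESeq2 1.42.0, limma-voom (limma 3.58.1), other filters, a replicate block and libraries left out.

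Same-numbered replicates deviated together from their group means (r = 0.465, 0.280 and 0.201 across genes, against -0.325 to 0.134 for other pairs). The number was therefore taken to pair the libraries, although the study states no pairing. Among the fits only the replicate block used this pairing. The main fit and the fits that left out libraries did not. The members and lists were chosen with earlier results of these data known. Named are all members, PTCH1, called pathway genes, up to 3 abundant genes of each pathway list, the 3 genes most like each of PROK1, EDNRA and ECE1, and markers. KIF17, CMA1, PLCB1, EEF1AKMT4 and CAMK2N2 were named, and the motifs chosen, after values were seen. Upstream sequence is from RefSeq (GRCh38.p14), which matched 8 of the 10 members.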

Additional observations from a re-analysis of the deposited data

How the results depend on the processing

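The log2 fold changes of PROK1, EDNRA, ECE1, EDNRB and PTCH1 kept their direction under all 13 alternatives, and that of ECE2 turned to 0.043 and 0.031 when the library labelled H295R replicate 1 or H295R-PM-Ptc+ replicate 2 was left out (-0.17 to 0.043 over the fits that left out one library). PROK1 passed an adjusted p of 0.05 in all 13. The 3 called members were 1 to 3 with one library left out, and 3 under every other alternative, the replicate block included, so the paired fit changed no member's call. Without the library labelled H295R replicate 3, H295R-PM-Ptc+ replicate 2 or H295R-PM-Ptc+ replicate 3 only PROK1 was called. The 1 called gene of the pathway lists became 2 with DESeq2 and with no filter on low counts, 8 with the replicate block and 6 without replicate 1 of both groups, and 0 to 3 with one library left out. Over all genes tested, 624 were called, 1111 with no filter on low counts, 3758 with the replicate block, 2013 without replicate 1 of both groups and 219 to 810 with one library left out. The cause of these changes was not tested. Depth limits EDN2, EDN3, PROKR1 and PROKR2, which had at most 2 counts in any library.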
